A study of Vigna unguiculata subsp. sesquipedalis with 24 samples.

Results

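The unigenes examined here are the 5 tonoplast aquaporins (tonoplast intrinsic proteins, TIPs) TIP2-2 (UP12_4732), delta-TIP (UP12_10083), gamma-TIP (UP12_28494), TIP3-2 (UP12_5050) and TIP1-3 (UP12_2919), out of 29471 unigenes on the array. They were taken by name from the study's annotation, in which TIP2-2, delta-TIP, gamma-TIP and TIP3-2 stand among the drought-regulated aquaporins and TIP1-3 in the lists of drought-regulated genes. Both lists were drawn up on these same arrays, so a drought change in the members is no independent evidence. A TIP unigene outside those lists was not analysed here. The names rest on similarity to proteins of other plants.

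Tonoplast aquaporins are channel proteins in the membrane of the plant vacuole. They let water, and in some members also ammonia, urea or glycerol, pass between the cytoplasm and the vacuole. In Arabidopsis, gamma-TIP is known from the large vacuoles of elongating and mature cells, delta-TIP also carries ammonia, TIP2-2 is known mainly from roots, TIP3 proteins from the storage vacuoles of seeds, and TIP1-3 from pollen. They are distinct from the plasma membrane aquaporins (PIPs), which let water across the outer membrane of the cell.

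The plants were 2 landraces of asparagus bean (*Vigna unguiculata* subsp. *sesquipedalis*), B47, labelled as anisohydric like, and B128, labelled as isohydric like. These terms are the labels' own, and plant water status was not analysed here. The study reported that B47 lowered its transpiration at a higher soil water content than B128. It also reported a higher leaf water content in B47 than in B128 under drought. The labels' terms are therefore not used here to describe how these plants handle water. Drought began at a seedling age of 16 days, when irrigation stopped, and leaf and root were taken on day 15 of the drought treatment or of continued watering. Well-watered B47 leaf, well-watered B128 leaf, drought B47 leaf, drought B128 leaf and the same 4 groups of roots had 3 arrays each, 24 in all. Each leaf or root sample mixed the 2 plants of a pot, and nothing in the labels says whether the pots were grown in separate experiments, so p-values measure the spread between these samples. The study took leaflets and roots from each plant, so the leaf and root samples of a line and treatment came from the same pots. Which leaf and root arrays shared a pot was not known here, and the main tests treated them as independent. Fits with leaf and root of the same replicate number as a block are given at the end. In such bulk samples, fewer cells of a type and less RNA per cell cannot be told apart.

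The values are normalized fluorescence intensities on 1-colour arrays, given per unigene on a linear scale. Their median per array lay between 1506 and 1581, and Pearson's r between replicate arrays, over unigenes that are not independent of one another, lay between 0.960 and 0.994. No detection calls or background values were used, so a low intensity could not be set against background, and the lowest in the table was 4.52. The 6 drought root arrays are called root in one label and leaf in another and were taken as roots. Their mean r with the well-watered root arrays of the line was 0.886 to 0.902, against 0.726 to 0.758 with the well-watered leaf arrays. Of 14 leaf markers (light-harvesting, photosystem and Rubisco genes), 12 were called lower in well-watered roots than in leaves of each line, and both Rubisco unigenes were called higher there. Summed over the list, leaf marker intensity was 33655 to 50590 in drought leaves and 7977 to 16729 in drought roots. Of 5 root markers (transporters for iron, nitrate and boron and a pair of peroxidases, taken from the study's drought-regulated genes), 4 were called higher in well-watered roots, but only 1 in drought roots, where 2 were called lower than in leaves. Summed root marker intensity was 48880 to 82649 in well-watered roots and 4427 to 7343 in drought roots, and all 5 fell under drought in the roots of both lines. With a lowest intensity of 4.52 in the table, no marker could be at 0. The peroxidase UP12_14315 had log2 means of 3.42 in drought B47 roots and 3.17 in drought B128 roots. Leaf marker intensity summed to 21923 to 39232 in well-watered roots and to 87666 to 122137 in well-watered leaves, the latter above the drought leaves. These sums include the 2 Rubisco unigenes, whose log2 means were 12.9 to 14.3 in well-watered roots and 11.5 to 12.9 in drought roots. Among the other 12 leaf markers the highest log2 mean was 10.1 in well-watered roots and 9.40 in drought roots. The root sums are therefore no measure of those 12. In leaves under drought, 5 of 14 leaf markers in B47 and 10 of 14 in B128 fell. The 2 Rubisco unigenes rose there in each line. Of all unigenes, 16% in B47 and 14.7% in B128 were called in leaves under drought in either direction. Every comparison with drought below therefore includes leaves in which summed leaf markers, and roots in which root markers, were lower than in well-watered plants, and their part in the results was not tested.

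Levels are first given per unigene. Levels of different unigenes were not set against each other, since each is read by its own probes. TIP2-2 had intensities of 41967, 37815 and 27862 in the 3 well-watered B128 root arrays and of 32515, 20963 and 21693 in well-watered B47 roots. In well-watered leaves it was 8814, 12100 and 9799 in B47 but 740, 4287 and 6456 in B128. Under drought it was 317, 651 and 357 in B47 roots, 236, 423 and 386 in B128 roots, 76.8, 124 and 167 in B47 leaves, and 27.9, 23.6 and 95.1 in B128 leaves. Its order was therefore well-watered roots, well-watered B47 leaves, well-watered B128 leaves, drought roots and drought leaves, with every well-watered array above every drought array of either organ. In this order the lines overlapped in well-watered roots, in drought roots and in drought leaves, but not in well-watered leaves, and the first B128 leaf array lay well below the other two.

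The delta-TIP unigene had its highest values in well-watered roots, at 7960, 12732 and 12214 in B128 and 3880, 9196 and 8771 in B47. Drought B128 roots followed at 1123, 518 and 612, and well-watered B128 leaves at 260, 143 and 181. The remaining groups were low, at 51.9, 76.1 and 140 in drought B47 roots, 87.3, 19.3 and 52.6 in drought B128 leaves, 11.9, 71.6 and 20.7 in well-watered B47 leaves and 12.9, 18.5 and 15.0 in drought B47 leaves. The upper groups were separated from each other, apart from the 2 lines in well-watered roots, and the 4 low groups overlapped in a chain from one to the next.

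The gamma-TIP unigene varied least of the 5. Its 24 intensities ran from 2388 to 31976, and its highest group mean was 8.26-fold above its lowest, whereas that ratio was 891 for TIP2-2, 702 for delta-TIP, 15.5 for TIP3-2 and 139 for TIP1-3. It was 29950, 31172 and 31976 in well-watered B128 roots, 20502, 23146 and 26641 in well-watered B47 roots, 15488, 16815 and 21357 in well-watered B128 leaves and 11250, 15705 and 8554 in well-watered B47 leaves. Under drought it was 11671, 9189 and 12653 in B128 roots, 7097, 7975 and 12084 in B47 roots, 2910, 2388 and 7620 in B128 leaves and 4058, 3404 and 5025 in B47 leaves. Well-watered B128 roots stood clear of every other group, drought B47 leaves stood clear of both groups of drought roots, and the other neighbours in this order overlapped.

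The TIP3-2 unigene was higher in drought roots than in any other group, though no higher than 415 even there. Its intensity was 330, 130 and 415 in drought B128 roots and 224, 279 and 201 in drought B47 roots. In the 4 leaf groups together its values ran from 22.7 to 74.7, and these groups overlapped in a chain. In well-watered roots they were 15.8, 14.4 and 21.1 in B128 and 25.4, 15.1 and 20.6 in B47, which gave the lowest group means. The drought roots did not overlap with any other group.

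The TIP1-3 unigene was low in one place only, the drought leaves. There its values were 26.6, 37.1 and 50.4 in B47 and 146, 12.5 and 62.7 in B128. In well-watered leaves it was 3275, 2661 and 4453 in B47 and 1994, 1092 and 2534 in B128. In roots it was 1594, 2439 and 1073 in well-watered B47, 1767, 2839 and 1866 in well-watered B128, 1977, 2791 and 2051 in drought B47 and 4151, 7161 and 4478 in drought B128. All 6 groups outside the drought leaves overlapped in a chain and lay above every drought leaf array.

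**Figure D1:**
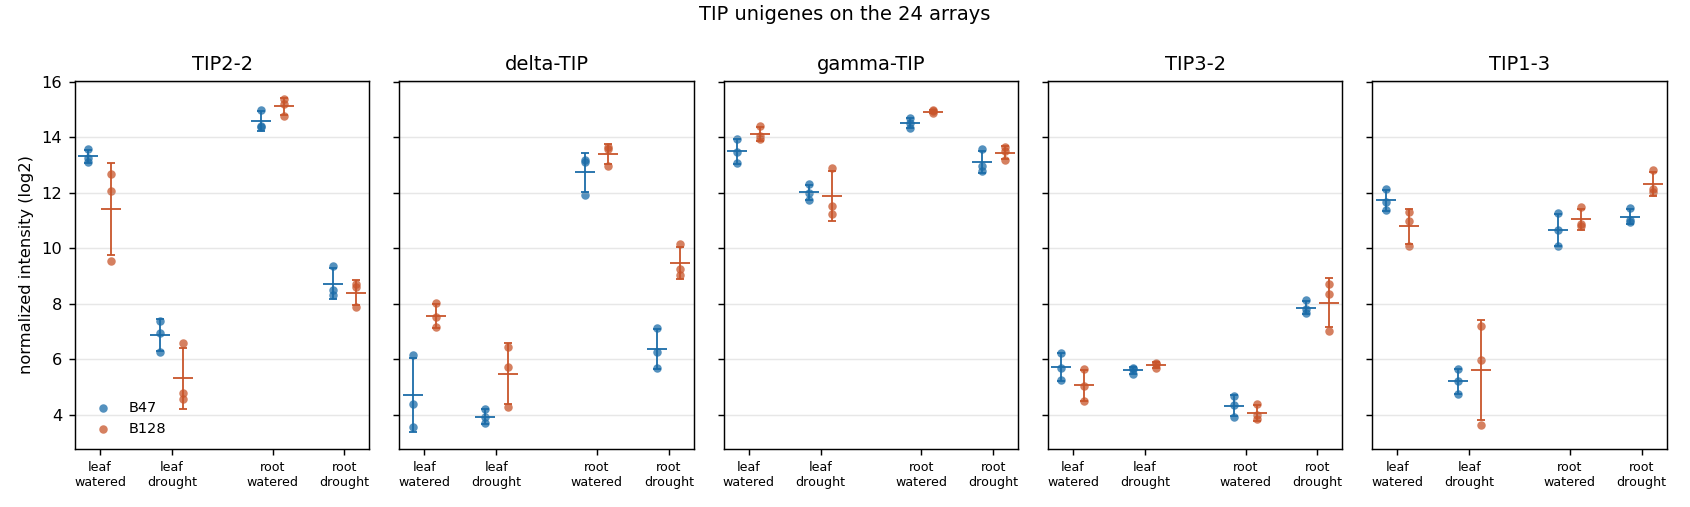
Normalized intensity (log2, vertical axis) of the 5 TIP unigenes in leaf and root, well-watered and under drought; points are the 3 arrays of a group, B47 in blue and B128 in orange, and bars give the group mean and 1 SD. TIP2-2 is high in both watered organs, delta-TIP in watered roots, TIP3-2 rises only in drought roots and TIP1-3 drops only in drought leaves.

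The first question was how the members differed between root and leaf of the same line and treatment. Differences are root minus leaf on the log2 scale, tested in limma by its moderated test, with p-values adjusted over all 29471 unigenes (Benjamini-Hochberg). Unigenes that differed by 2-fold or more with an adjusted p no higher than 0.01 were called. In well-watered B47, delta-TIP and gamma-TIP were called higher in root and TIP3-2 lower, so that 3 of 5 members were called where 36% of all unigenes were. In well-watered B128, TIP2-2 and delta-TIP were called higher in root, 2 of 5 members against 38.3% of all unigenes. Under drought 4 of 5 members were called in B47, against 34.7% of all unigenes, and 5 of 5 in B128, against 34.6%. Each of these was higher in root, a direction called for 17.1% of all unigenes in either line. TIP2-2 was the member not called in drought B47. With so many unigenes called in each of these comparisons, the counts for well-watered plants lay near the background. Scaling the arrays to equal yeast control entries moved the median difference of all unigenes under drought by -0.69 in B47 and -0.62 in B128, and with that scaling 2 of 5 members were called in B47, TIP3-2 and TIP1-3.

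For delta-TIP the root excess was the largest of the members in well-watered plants, at 8.03 (SE 0.58, 261-fold, adjusted p = 4.2e-10) in B47 and 5.83 (SE 0.58, 56.8-fold, adjusted p = 4.2e-08) in B128. The B47 value rests on leaf intensities of 11.9 to 71.6, and it was 6.17 with 64 added and 7.46 to 8.76 without 1 array, called each time. Under drought delta-TIP was also called, at 2.42 (SE 0.58, adjusted p = 0.0013) in B47 and 3.99 (SE 0.58, adjusted p = 7.4e-06) in B128. Root and leaf arrays did not overlap in any of these comparisons. The drought B47 call was lost without drought B47 root replicate 3, at 2.04 (adjusted p = 0.011). It was also lost when 64 was added to each intensity before the log2, at 0.91 (adjusted p = 0.027), and with the yeast controls set equal, at 1.73 (adjusted p = 0.010).

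TIP2-2 was higher in root than in leaf of B128, by 3.69 (SE 0.60, adjusted p = 2.5e-05) when well-watered and by 3.09 (SE 0.60, adjusted p = 0.00019) under drought. In B47 its differences of 1.27 (SE 0.60, adjusted p = 0.074) and 1.85 (SE 0.60, adjusted p = 0.012) were not called, although no root array overlapped with a leaf array. With only the 6 arrays compared in the fit, both were called, and the drought difference was also called without well-watered B128 leaf replicate 1 or 3 or drought B128 leaf replicate 3, arrays that bear only on the shared spread. Without well-watered B128 leaf replicate 1, the array with the low value named above, the difference in well-watered B128 was 2.75.

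The root minus leaf differences of gamma-TIP were small, at 1.02 (SE 0.32, adjusted p = 0.0098) in well-watered B47, 0.81 (SE 0.32, adjusted p = 0.035, not called) in well-watered B128, 1.10 (SE 0.32, adjusted p = 0.0061) in drought B47 and 1.56 (SE 0.32, adjusted p = 0.00034) in drought B128. Root arrays lay above leaf arrays in all 4 comparisons. The well-watered B47 value sat at the edge of both thresholds, and its call was lost in 19 of the 24 fits that left out 1 array (adjusted p up to 0.059). The drought B47 call was lost without drought B47 leaf replicate 1 (1.09) or 2 (0.96) and without drought B47 root replicate 2 (1.17) or 3 (0.87). With the yeast controls set equal, none of its 4 differences was called, and they ran from 0.41 to 0.96.

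TIP3-2 changed the sign of its organ difference with drought. It was lower in root than in leaf of well-watered B47, by 1.39 on the log2 scale (-1.39, SE 0.35, adjusted p = 0.0019), and at -0.98 (SE 0.35, adjusted p = 0.020) it was not called in well-watered B128, though it was at -1.25 without well-watered B128 leaf replicate 3. Under drought it was higher in root, by 2.26 in B47 (SE 0.35, adjusted p = 1.4e-05) and 2.24 in B128 (SE 0.35, adjusted p = 1.7e-05). The well-watered B47 call rested on intensities between 15.1 and 74.7 and was lost without well-watered B47 leaf replicate 1, at -1.14, or without well-watered B47 root replicate 2, at -1.19, and with 64 added, at -0.48. Of all unigenes, 116 (0.394%) were called lower in root when well-watered and higher in root under drought in B47.

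TIP1-3 was not called between the organs of well-watered plants, at -1.07 (95% confidence interval -2.29 to 0.15, adjusted p = 0.12) in B47 and 0.25 (-0.97 to 1.48, adjusted p = 0.72) in B128. Under drought it was higher in root by 5.93 (SE 0.58, 61.1-fold, adjusted p = 3.7e-08) in B47 and by 6.72 (SE 0.58, 105-fold, adjusted p = 6.7e-09) in B128. These folds rest on low drought leaf intensities, and with 64 added the differences were 4.51 and 5.35, still called. The B128 difference was 5.74 without drought B128 leaf replicate 2 and 7.51 without replicate 1 of that group. Of all unigenes, 732 (2.48%) were called higher in root under drought and not called between the well-watered organs in both lines.

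**Figure D2:**
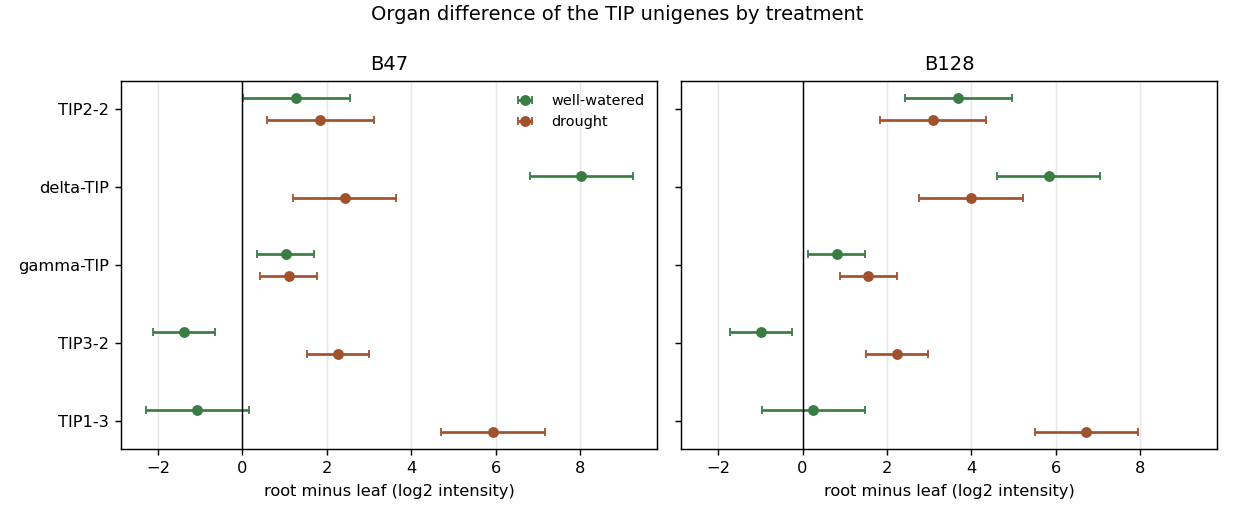
Root minus leaf (log2 intensity, horizontal axis) of each TIP unigene in B47 and B128, in well-watered plants (green) and under drought (brown); points are limma estimates and bars their 95% confidence intervals. TIP1-3 moves from intervals that include 0 to 5.93 and 6.72 under drought, TIP3-2 passes from below 0 to above it, and delta-TIP in B47 drops from 8.03 to 2.42.

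The second question was whether the drought change differed between root and leaf, tested as the drought change in root minus that in leaf within each line. TIP1-3 and TIP3-2 were called with a positive term in both lines and delta-TIP with a negative one in B47, so that 3 of 5 members were called in B47, where 16.2% of all unigenes were, and 2 of 5 in B128, where 16.4% were. Of all unigenes, 7.41% were called with a positive and 8.81% with a negative term in B47, and 8.44% and 7.92% in B128. A positive term was called in both lines for 1184 unigenes (4.02%). The members were chosen for drought changes on these same arrays, and the term is a difference of such changes. Their counts against these shares are therefore a description. TIP2-2 and gamma-TIP were not called in either line. These 5 calls were kept without each array in turn and under every alternative in which the member was tested.

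TIP1-3 had the largest term, 7.00 (SE 0.83, adjusted p = 4.5e-06) in B47 and 6.46 (SE 0.83, adjusted p = 1.0e-05) in B128. Only 41 unigenes in B47 and 73 in B128 had a term farther from 0. The drought changes behind it were -6.52 in B47 leaves and -5.18 in B128 leaves, both called, and 0.48 (95% confidence interval -0.74 to 1.70) and 1.28 (0.05 to 2.50, adjusted p = 0.077) in the roots, neither called. The B128 root change was called at 1.28 without drought B128 leaf replicate 2 (adjusted p = 0.010), and at 1.25 with 64 added (adjusted p = 0.0072). In drought B128 leaves its intensities were widely spread, from 12.5 to 146. With 64 added the terms were 5.55 and 5.11, still called, and without 1 array the B128 term ran from 5.48 to 7.26.

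TIP3-2 had a term of 3.65 (SE 0.49, adjusted p = 2.0e-05) in B47 and 3.22 (SE 0.49, adjusted p = 7.4e-05) in B128. Its drought changes were 3.54 in B47 roots and 3.95 in B128 roots, both called, and -0.11 and 0.74 in the leaves, neither called. The study counted TIP3-2 among aquaporins whose drought response depended on genotype, and placed it with those of B47. At the same thresholds, but by a test that may differ from the study's, the root rise was called here in both lines. The line by drought term in root was 0.41 (SE 0.49, adjusted p = 0.97), not called. It was among the 25% of unigenes with the lowest mean, and with 64 added to each intensity the terms shrank to 1.88 and 1.75, still called.

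The term of delta-TIP was -5.60 (SE 0.82, adjusted p = 4.9e-05) in B47 and -1.84 (SE 0.82, 95% confidence interval -3.56 to -0.11, adjusted p = 0.098) in B128. Its drought change was -6.37 in B47 roots and -3.92 in B128 roots, both called. In B47 leaves it was -0.77, not called, from a well-watered level of 11.9 to 71.6, so low that a fall might not have shown. In B128 leaves it was -2.08 (adjusted p = 0.0088), a call lost in 16 of the 24 fits that left out 1 array (adjusted p up to 0.069). With 64 added, the B128 term was -2.64 (adjusted p = 0.00037) and passed the threshold. The difference of the terms between the lines was 3.76 (SE 1.17, adjusted p = 0.095) and was not called.

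TIP2-2 and gamma-TIP fell under drought in all 4 comparisons, a pattern called for 532 unigenes (1.81%). TIP2-2 changed by -6.44 and -6.11 in the leaves of B47 and B128 and by -5.87 and -6.71 in their roots, and its organ by drought term was 0.57 (95% confidence interval -1.21 to 2.36) in B47 and -0.60 (-2.39 to 1.18) in B128. For gamma-TIP the changes were -1.48, -2.24, -1.40 and -1.49 in the same order, and the terms were 0.08 (-0.87 to 1.03) and 0.75 (-0.20 to 1.70). These intervals leave room for a difference between organs of more than 2-fold in either unigene. With the yeast controls set equal, the uncalled terms in B47 turned to -0.06 for TIP2-2 and -0.56 for gamma-TIP. The uncalled B128 term of TIP2-2 turned to 0.34 without well-watered B128 leaf replicate 1 and to 0.03 without drought B128 leaf replicate 3, and was -1.75 with 64 added. Since the members were chosen by the study for drought regulation, the drought calls, 3 of 5 in B47 leaves, 4 of 5 in B128 leaves and 4 of 5 in the roots of each line against backgrounds of 16%, 14.7%, 22.5% and 21.7%, are a description.

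**Figure D3:**
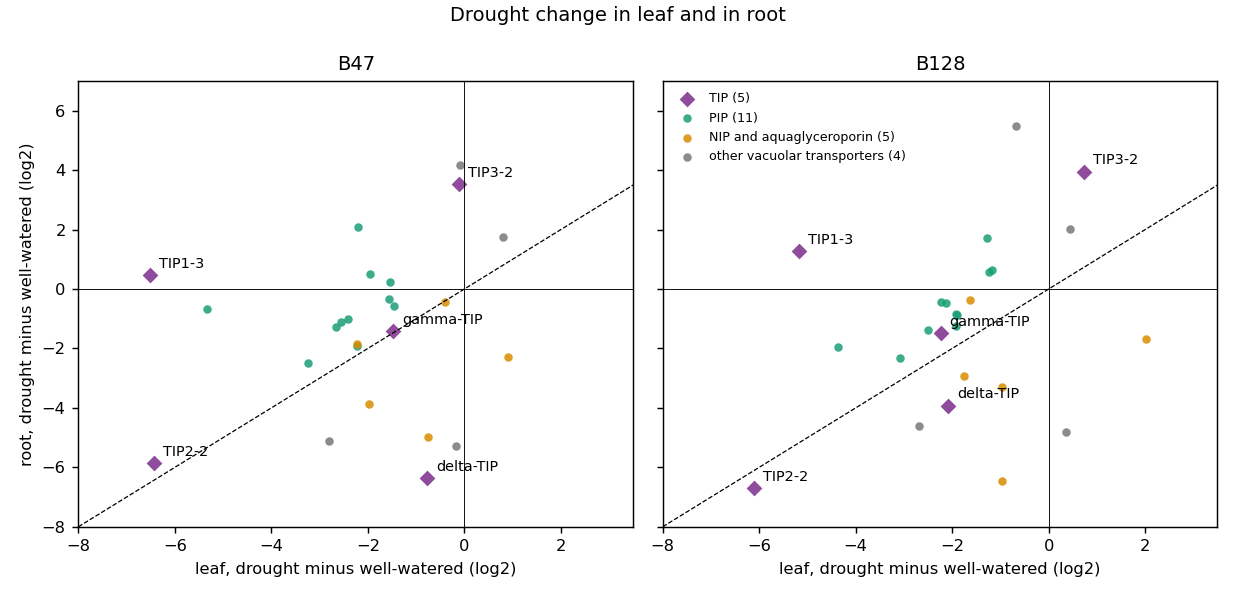
Drought minus well-watered change (log2) in leaf (horizontal axis) and root (vertical axis) of B47 and B128 for the 5 TIPs (purple diamonds), 11 PIPs (green), 5 NOD26-like aquaporins and aquaglyceroporin (NIPs, orange) and 4 other vacuolar transporters (grey); on the dashed line both organs change alike. TIP2-2 and gamma-TIP lie near the line, TIP1-3 and TIP3-2 lie above it, and delta-TIP lies below it.

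The members also differed among themselves in profile. Over the 8 group means, each centred on its own mean, the closest pair was gamma-TIP and TIP1-3, with a root mean square difference of 1.93 on the log2 scale, and the farthest was TIP2-2 and TIP3-2, with 4.39. The profiles were not scaled, so this measure follows the size of the changes as well as their direction. By it gamma-TIP and TIP3-2 lay at 2.05, although in roots under drought gamma-TIP fell and TIP3-2 rose in both lines. No pair of members came as close as the nearest other unigenes did. The nearest to TIP2-2 were UP12_29344 and UP12_29616, both annotated as the abscisic acid receptor PYL5, at 0.78 and 0.82, and UP12_10552, an uncharacterized protein, at 0.80, and these were the only 3 unigenes within 1. For TIP1-3 they were UP12_2099 (0.63, unknown), UP12_19402 (0.72, a putative tropine dehydrogenase) and UP12_1535 (0.81, a basic leucine-zipper protein), with 12 unigenes within 1. The nearest to delta-TIP, UP12_27984 (0.71), UP12_3460 (0.73) and UP12_27667 (0.90), are not named here, and 9 unigenes lay within 1. For TIP3-2 the nearest were UP12_20763 (0.22), UP12_8371 (0.23) and UP12_25658 (0.36), also not named here, among 1097 within 1. For gamma-TIP, whose group means varied least, 6645 unigenes lay within 1, the nearest being UP12_18594 (0.20, diacylglycerol kinase 5), UP12_18963 (0.21) and UP12_18989 (0.22, asparaginase).

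Between the lines, compared as B128 minus B47 within organ and treatment, delta-TIP was the only member called. It was higher in B128 in well-watered leaves, by 2.86 (SE 0.58, 7.26-fold, adjusted p = 0.0018), and in drought roots, by 3.11 (SE 0.58, 8.63-fold, adjusted p = 0.0022). With 64 added these were 1.41 and 2.38, still called. That made 1 of 5 members in each, against 6.46% and 2.09% of all unigenes. The arrays of the lines did not overlap in either. The first call was lost without well-watered B128 leaf replicate 1 (2.63), well-watered B47 leaf replicate 1 (2.30) or replicate 3 (2.70), and the second without drought B128 root replicate 1 (2.78), drought B47 root replicate 1 (2.78) or replicate 2 (3.05). In well-watered roots its difference was 0.66 and in drought leaves 1.54, neither called.

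By limma's moderated test, 0 of 5 members were called between lines in well-watered roots or in drought leaves, where 2.3% and 3.18% of all unigenes were, and 0 and 2 of the 5 had an unadjusted p under 0.05. TIP2-2 in well-watered leaves was lower in B128 by 1.89 on the log2 scale (-1.89, SE 0.60, adjusted p = 0.034) and not called. Without well-watered B128 leaf replicate 3 it was called at -2.51, and without well-watered B128 leaf replicate 1 it was -0.95. In the terms for line by organ, line by drought and their combination, 0 of 5 members were called. At an unadjusted p under 0.05 there were 2 members for line by organ in well-watered plants (TIP2-2 and delta-TIP), 0 under drought, 0 for line by drought in leaf, 1 in root (delta-TIP) and 1 for all 3 factors (delta-TIP). Background shares in these 5 terms were 3.8%, 0.621%, 2.42%, 0.319% and 1.28%. With array weights in the fit, delta-TIP was called between lines in drought leaves (1.59) and in 3 of these terms, line by organ under drought (2.67), line by drought in root (4.04) and all 3 factors (5.33).

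Other aquaporins and vacuolar transporters were measured in the same fit. These lists come from the same drought-regulated genes of the study and were set beside the TIPs without a test between lists. Since these genes were chosen for drought changes on these arrays, their counts against the shares of all unigenes are a description. Of 11 PIPs, 7 in B47 and 6 in B128 were called with a positive organ by drought term and 0 with a negative one, where 7.41% and 8.44% of all unigenes had a positive call, with medians of 1.40 and 1.66, against medians of 0.03 and 0.07 over all unigenes. The terms of PIP1-4.3 were 4.28 and 3.00 in B47 and B128, those of PIP1-4.2 were 4.66 and 2.39, those of PIP2B were 2.46 and 1.83 and those of the PIP2-2 unigene UP12_10224 were 1.78 and 1.82. Under drought all 11 PIPs were called higher in root than in leaf of both lines, as were 17.1% of all unigenes in each. All 11 fell in the leaves of each line, where 16% and 14.7% of all unigenes were called in either direction. In roots 5 fell and 1 rose in B47 and 4 fell and 1 rose in B128, against 22.5% and 21.7% of all unigenes. The TIPs were less uniform, with the terms of their 5 members running from -5.60 to 7.00 in B47 and from -1.84 to 6.46 in B128, and medians of 0.57 and 0.75.

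The 5 NIPs, which in plants carry small solutes such as glycerol and boric acid as well as water, included no positive call and 3 negative ones in each line, against 8.81% and 7.92% of all unigenes with a negative call, with medians of -1.90 and -2.32. NIP4-2 had terms of -4.21 and -5.50, the NIP1-2 unigene UP12_22099 of -3.19 and -3.71, and the aquaglyceroporin of -1.90 and -2.32, while the other NIP1-2 unigene was at -0.02 and 1.26, not called. Among 4 other vacuolar transporters, CAX3, a calcium and proton exchanger of the tonoplast, had terms of 4.28 in B47 and 6.16 in B128. The vacuolar iron transporter homologs VITH4 (-5.12 and -5.17) and VITH1 (-2.31 and -1.93) were negative in both lines. A subunit of the vacuolar proton pump was at 0.96, not called, and 1.57, called.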

How the data were processed

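RNA of leaf and root of B47 and B128, well-watered or under drought, was hybridized to 24 custom 1-colour NimbleGen arrays with 4 probes per unigene. The authors quantile-normalized the probe intensities, summarized them with the Robust Multichip Average (RMA) algorithm and deposited normalized intensity values on a linear scale, so that a change shared by most transcripts would not appear. Groups and replicates came from the labels.

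The deposited values were log2-transformed with no pseudocount, and no test included the 8 yeast control entries. A model with 1 mean for each group was fitted to all 24 arrays in limma 3.58.1 (R 4.3.3), so that all groups shared one estimate of the spread (16 residual and 2.88 prior degrees of freedom). Adjustment followed Benjamini and Hochberg, per comparison over 29471 unigenes. A fold change of at least 2 with an FDR of at most 0.01, the thresholds in the study's methods, made a call. The fit was tested on simulated data, in which 200 of 29471 unigenes were given a change of 2 on the log2 scale. It recovered 90% of them for root minus leaf in well-watered B47 and 69.5% for the organ by drought term in B128. False calls numbered 1 and 4. In the simulation a true organ by drought term of this size could therefore go uncalled. The simulated errors were normal and independent, and all other unigenes were left unchanged. In the data 36% and 16.4% of all unigenes were called in these 2 comparisons, so the simulated rates do not carry over to them. Plots were made with Python 3.11.15 and matplotlib 3.10.9. The number of arrays limits the precision.

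The text names the 5 members, for each the 3 unigenes with the smallest root mean square difference in the 8 group means, and up to 4 unigenes per comparison list with the largest organ by drought term. The members and lists were chosen with earlier results of these data known. The alternatives were 64 added before the log2, removal of the lowest 25% of unigenes by mean, 3 other scalings, other fits and replicate blocks, other thresholds, and leaving out each array. No genome coordinates or sequences were used here.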

Additional observations from a re-analysis of the deposited data

Results flagged for a closer look

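In 5 results a drought change differed between root and leaf by a test of the difference itself (limma, drought change in root minus that in leaf). For TIP1-3 the difference was 7.00 (SE 0.83, adjusted p = 4.5e-06) in B47 and 6.46 (SE 0.83, adjusted p = 1.0e-05) in B128, with the fall in the leaves. For TIP3-2 it was 3.65 (SE 0.49, adjusted p = 2.0e-05) in B47 and 3.22 (SE 0.49, adjusted p = 7.4e-05) in B128, with the rise in the roots. For delta-TIP in B47 it was -5.60 (SE 0.82, adjusted p = 4.9e-05), with the fall in the roots. In well-watered B47 leaves its intensity was already as low as 11.9 to 71.6, so a fall there might not have shown. In B128 the delta-TIP term was -1.84 and not called.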

How the results depend on the processing

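Of the 36 called differences of the members, over 19 comparisons, none turned in sign under any alternative. Leaving out each of the 24 arrays gave 864 values of these differences, of which 48 lost their call. The number of members called then ran from 1 to 3 for root minus leaf in well-watered B47, from 2 to 5 in drought B47 (4 with all arrays), from 0 to 2 between lines in well-watered leaves and from 0 to 1 in drought roots. With the yeast controls set equal, 2 members were called for root minus leaf in drought B47. With only the compared arrays in the fit, 2 were called for drought in B128 leaves (4 in the fit of all arrays), 0 between lines in well-watered leaves and 0 in drought roots. With array weights, whose estimation stopped before full convergence, 0 were called between lines in well-watered leaves, and 1, delta-TIP, in drought leaves, in line by organ under drought, in line by drought in roots and in the term of all 3 factors. At an FDR of 0.05, 2 were called between lines in well-watered leaves. When limma tested against a 2-fold change, 1 was called for root minus leaf in well-watered B47, 2 in drought B47, 2 for drought in B128 leaves, and 0 between lines in well-watered leaves and in drought roots, and 24 of the 36 calls were kept in all. The filter on low means removed delta-TIP and TIP3-2, so no count over 5 members was made with it. Of the 57 differences of the other 3 members, 19 were called with it. Low intensities without detection calls limit what can be said of these members. The replicate numbers gave no clear pairing of the arrays, though the following correlations cannot exclude one. Deviations of arrays with the same number correlated at -0.40 to 0.57 (mean 0.0017, 84 pairs), and those of leaf and root with the same number at -0.16 to 0.17 (12 pairs). Arrays with different numbers correlated at -0.62 to 0.40 (168 pairs). Of the pairs with the same number 20 were above 0.1, and of those with different numbers 28. An array of their own number was the best match for 12 of 24 arrays, and with 3 numbers some such matches would occur without any pairing. With the replicate number as a block, 36 differences were called, with TIP2-2 in root minus leaf of drought B47 (1.85, adjusted p = 0.0086) gained and delta-TIP for drought in B128 leaves (-2.08, adjusted p = 0.013) lost. With leaf and root of the same number as a block, 19 of 45 organ differences and interactions with organ were called, as without it, and as a random block gamma-TIP in well-watered B47 (1.02, adjusted p = 0.012) was lost.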
